A study of Mus musculus with 28 samples.

Results

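Poly(A) RNA of mouse brain synaptosomes after SynSURF sorting was set against that of crude synaptosomes, across every gene of the deposited count table. Libraries were chosen by their titles. The comparison used all 10 sorted and all 10 crude libraries of the SynSURF preparation, 20 of the 28 libraries of the series. Sorted samples held about 30000000 particles, sorted under a reversible fixative per the series title and taken up in 10 µL of TCEP, a reducing agent. Crude samples held about 15000000 particles of the pellet in 10 µL of PBS. Both groups are brain material with primary neurons as the labelled cell type, and the labels give no strain, genotype, age or treatment. RNA was amplified by whole-transcriptome amplification before library construction on the 10x Genomics platform. The labels do not tie replicates to separate animals, so p-values reflect only how far these libraries spread, and that spread may be technical. A lower level can mean fewer particles of a kind or less RNA per particle, and these cannot be told apart in bulk samples. The groups also differ in buffer and particle number, and the fixative is given for sorting only. Effects of this handling cannot be told apart from those of sorting.

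A synaptosome is a pinched-off and resealed nerve terminal, often with a piece of postsynaptic membrane attached. Neurons and glia ship part of their mRNA into processes, where it can be translated far from the nucleus. mRNAs of cytosolic proteins are translated on free ribosomes, whereas most mRNAs of channels, receptors, adhesion molecules and secreted proteins are translated at the endoplasmic reticulum. Myelin basic protein mRNA is a long-known example of a transcript carried to the ends of glial processes.

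The sorted libraries were much shallower than the crude ones. They held 76520 to 325117 counts in 9 libraries and 1812759 in replicate 1, against 1035423 to 8897238 in crude libraries. A count was found for 2588 to 6630 genes in sorted libraries (median 3743), against 12236 to 14701 in crude libraries (median 13437). Thinned to the totals of the same-numbered sorted libraries, crude libraries still held 7271 to 12606 genes (median 9419). Thinned to the sorted counts other than Rn45s, they held 6415 to 12104 genes (median 9401.5). Rn45s is the ribosomal RNA precursor unit, and it took 0.805% to 62.5% of sorted counts and 0.0894% to 0.778% of crude counts. Without Rn45s the 10 most abundant genes took 13.9% to 24.5% of sorted and 6.02% to 8.90% of crude counts. A count of 3 corresponded to 1.65 to 39.2 plain CPM (of total counts) in sorted libraries and 0.337 to 2.90 in crude libraries. A level below this in a sorted library therefore rests on fewer than 3 counts.

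Of 25239 genes in the table, 607 had a count in every sorted library and 10598 in every crude library. The figure for thinned crude libraries was 4773, of which 600 were also counted in all 10 sorted libraries and 107 in none. With crude libraries thinned to the sorted counts other than Rn45s it was 3891, of which 584 were in all 10 sorted libraries and 62 in none. At 100 to 300 CPM in crude (read counts scaled to library size with TMM factors), a gene was counted in a mean of 7.27 sorted and 10.0 thinned crude libraries, or 9.98 with the thinning that leaves out Rn45s. At 30 to 100 CPM the means were 5.03 sorted and 9.86 thinned crude libraries, or 9.66 without Rn45s, and at 1000 CPM or more 9.55 sorted and 10 thinned crude libraries. Sorted detection lay below that of thinned crude libraries at each level shown, with either thinning. The 607 genes held 49.0% to 82.4% of the counts of each sorted library and 36.6% to 40.9% of those of each crude library.

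**Figure D1:**
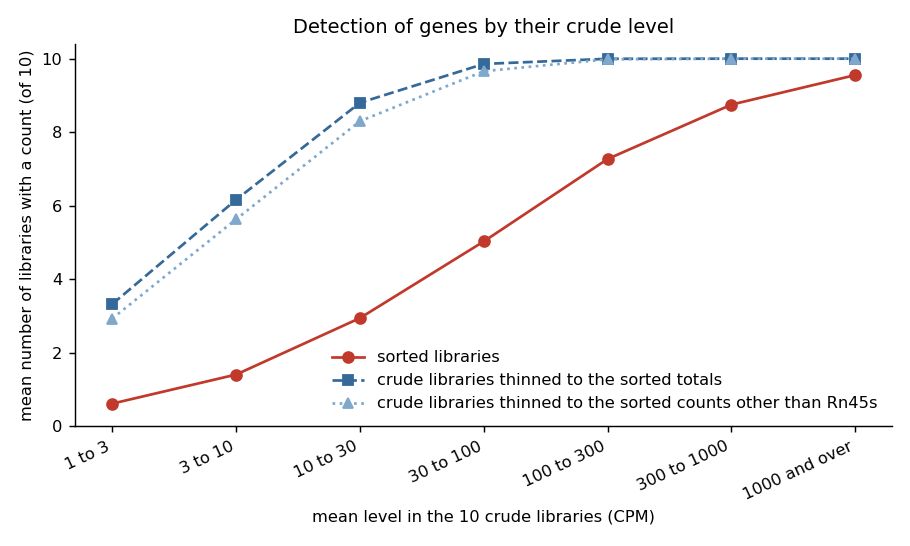
Mean number of libraries, of 10, in which a gene had a count (vertical axis), by the gene's mean CPM in the crude libraries (horizontal axis, in ranges). Red circles are sorted libraries and blue squares are crude libraries thinned to the sorted totals, and pale blue triangles those thinned to the sorted counts other than Rn45s. For genes at 100 to 300 CPM the sorted mean is 7.27 libraries and the thinned crude means 10.0 and 9.98.

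Across the 6598 genes that passed the expression filter, more fell than rose in sorted libraries. By the quasi-likelihood test of edgeR, 503 genes were higher, 7.62% of those tested, and 1458 lower, 22.1% of those tested (Benjamini-Hochberg adjusted p under 0.05). The median log2 fold change of sorted over crude was -0.18 over all tested genes and -1.28 with plain library totals in place of TMM factors. Each change below therefore depends on the scaling. Changes are given with TMM factors unless stated, and no median was subtracted. With library totals 100 genes were higher and 2592 lower. Of the 1458 lower genes, 1347 were also lower without sorted replicates 1 and 4 and 1232 with sample-weighted voom. With crude counts thinned to the sorted totals 200 were, of the 218 of them that could then be tested.

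Few of the raised genes rose across the sorted libraries. In 333 of the 503 higher genes a single sorted library gave over 50% of the summed sorted CPM, and in 74 over 90%. The other 170, 2.58% of tested genes, had no such library, and 60 had none over 30%. Of these, 99 had in addition a count in every sorted library. Without its own leading library, 38 of the 333 were still called higher and 82 of the 170. For 10 genes (0.152%) the lowest sorted value exceeded the highest crude value, and for 576 (8.73%) the highest sorted value was below the lowest crude value.

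Sorted replicate 4 led 150 of the 333 calls that rested on a library, and replicate 1 led 36. The other 8 libraries led 7 to 25 each. In replicate 4, 63.9% of all counts fell in genes to which it gave over 50% of the summed sorted CPM. The median over the 10 sorted libraries was 25.2%. Replicate 4 was the second deepest sorted library at 325117 counts.

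**Figure D2:**
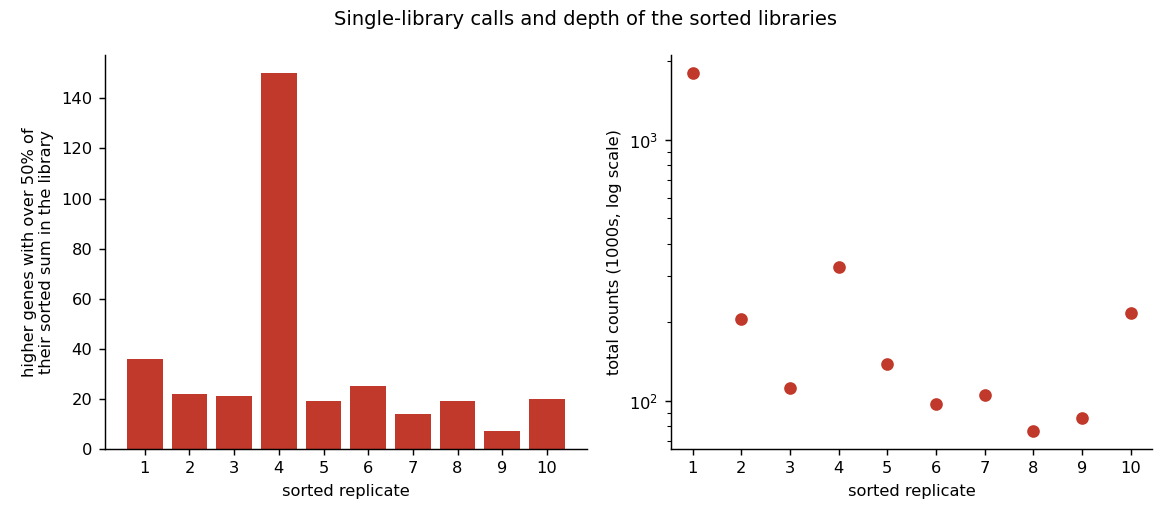
Left, the number of genes called higher in sorted libraries that took over 50% of their summed sorted CPM from the given sorted replicate. Right, the total counts of each sorted replicate in units of 1000, on a log scale. Replicate 4 leads 150 such genes and replicate 1, the deepest library, 36.

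Higher genes counted in every sorted library, with no library over 50% of the sorted sum and a mean of at least 50 CPM, had their highest fold changes in Rn45s and Lars2, followed by Mobp, Trp53inp2 and Mbp. Mobp, the myelin-associated oligodendrocyte basic protein (chromosome 9, 120149707 to 120181484), lay at 4074 to 21869.6 CPM in sorted libraries (median 10192) and 378 to 887 CPM in crude libraries (median 711). Mbp, myelin basic protein itself, lay at 13860.3 to 73129 CPM in sorted libraries (median 36757) and 1209 to 4139.6 CPM in crude libraries (median 2715). In both genes every sorted library was above every crude one. The log2 fold changes were 4.05 ± 0.40 for Mobp (edgeR adjusted p = 7.40e-07) and 3.89 ± 0.41 for Mbp (edgeR adjusted p = 1.20e-06).

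Trp53inp2, which acts in autophagosome formation, lay at 457 to 7307 CPM in sorted libraries (median 3132) and 92.3 to 415 CPM in crude libraries (median 201). Pkp4, an armadillo protein of cell junctions, lay at 426 to 2883 CPM in sorted libraries (median 1581) and 47.2 to 177 CPM in crude libraries (median 115). Bcas1, a gene of myelinating oligodendrocytes, lay at 168 to 3619 CPM in sorted libraries (median 719) and 49.7 to 101 CPM in crude libraries (median 65.5). The groups did not overlap in any of these genes, with log2 fold changes of 3.98 ± 0.54, 3.78 ± 0.51 and 3.80 ± 0.61 (edgeR adjusted p = 9.38e-06, 9.38e-06 and 3.78e-05). Fth1, the ferritin heavy chain that stores iron, lay at 9478 to 71266 CPM in sorted libraries (median 20708) and 1471 to 6551 CPM in crude libraries (median 2673). Trak2, which links mitochondria to kinesin, lay at 2947 to 9732 CPM in sorted libraries (median 5544) and 440.3 to 951 CPM in crude libraries (median 687). Both were above every crude library in all 10 sorted libraries, with log2 fold changes of 3.18 ± 0.43 (edgeR adjusted p = 1.02e-05) and 2.96 ± 0.41 (edgeR adjusted p = 1.05e-05).

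S100b, Prr18, Rflnb, Hipk2, Ddx39b and Myl6 also rose, with groups that overlapped. S100b, a calcium-binding protein of astrocytes and some oligodendrocytes, lay at 198 to 2457 CPM in sorted libraries (median 858) and 48.5 to 223 CPM in crude libraries (median 128). In 9 of 10 sorted libraries it was above every crude library (3.07 ± 0.55, edgeR adjusted p = 0.000114). Prr18 lay at 99.00 to 3446 CPM in sorted libraries (median 988) and 72.5 to 179 CPM in crude libraries (median 119), and also cleared every crude library in 9 of 10 (3.23 ± 0.60, edgeR adjusted p = 0.000174). Rflnb, which encodes a filamin-binding protein, rose by 2.96 ± 0.60 and the non-muscle myosin light chain gene Myl6 by 3.26 ± 0.69 (edgeR adjusted p = 0.000434 and 0.000671). Ddx39b, an RNA helicase of mRNA export, rose by 2.99 ± 0.69 (edgeR adjusted p = 0.0017). Hipk2, a protein kinase, rose by 3.18 ± 0.73 (edgeR adjusted p = 0.00159) but had 10.5 to 929.7 CPM in sorted libraries (median 61.5), and its highest library gave 46.2% of the sorted sum. Rflnb and Hipk2 lay above every crude library in 8 of 10 sorted libraries, and Ddx39b and Myl6 in 7. The lowest sorted value of Ddx39b, at 17.9 CPM, and that of Hipk2 lay below the lowest crude values of 92.3 and 12.8 CPM.

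Rn45s and Lars2 stood apart by their spread. Rn45s lay at 9684 to 1270022 CPM in sorted libraries (median 241406) and 762 to 5218 CPM in crude libraries (median 2508) (7.06 ± 0.85, edgeR adjusted p = 5.29e-06). CPM is relative to the TMM-scaled total, so it is not a plain share of counts. Lars2, the mitochondrial leucyl-tRNA synthetase, lay at 171 to 27142 CPM in sorted libraries (median 553) and 23.1 to 338 CPM in crude libraries (median 122) (5.26 ± 1.02, edgeR adjusted p = 0.00026). Lars2 stood at 1.62 without sorted replicates 1 and 4 (edgeR adjusted p = 0.0191), at 2.55 with sample-weighted voom and at 2.25 with the replicate block, still called in each. Its 2 highest sorted values were 27142 CPM in replicate 1 and 24522 in replicate 4, where Rn45s stood at 1270022 and 251466 CPM. In replicate 9, where Rn45s stood at 1021609 CPM, Lars2 had 325 CPM.

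**Figure D3:**
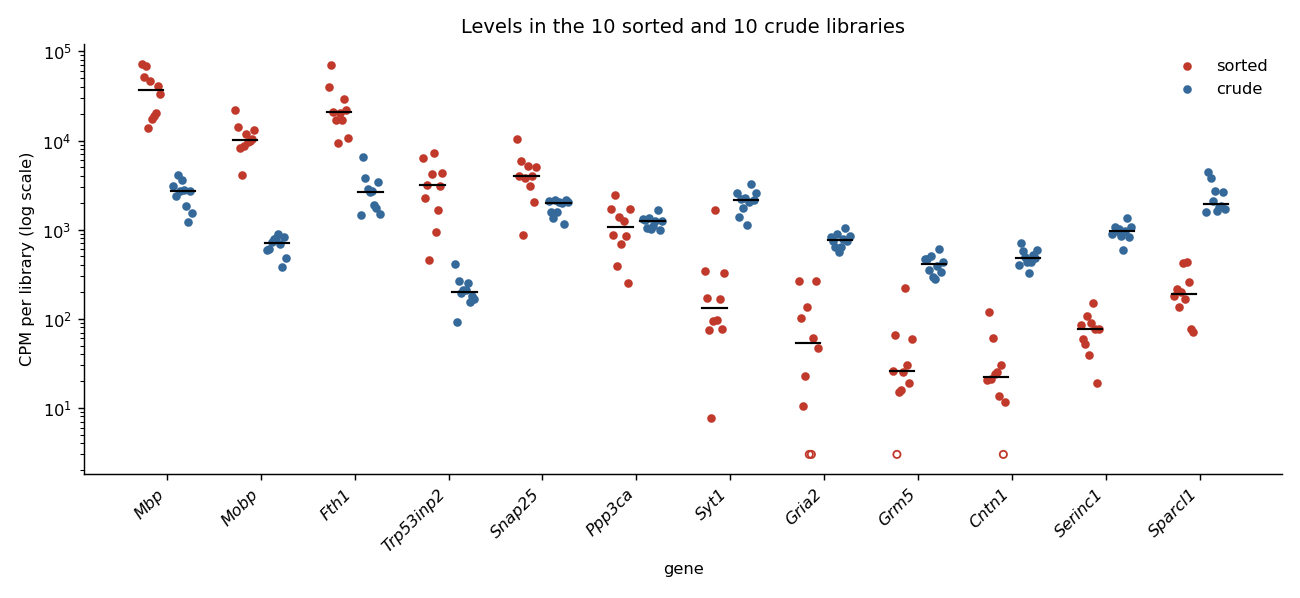
CPM in each library on a log scale for 12 genes, with sorted libraries in red on the left and crude libraries in blue on the right of each gene. Black bars are medians and open circles at the bottom are libraries with under 3 CPM. Mbp, Mobp, Fth1 and Trp53inp2 separate upward without overlap, Ppp3ca overlaps, and Gria2, Grm5, Cntn1, Serinc1 and Sparcl1 separate downward.

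Most of the receptor, channel and adhesion mRNAs tested fell. Over the lists of ionotropic glutamate receptors, metabotropic receptors, adhesion and guidance molecules, potassium channels, and sodium, calcium and leak channels, 90 of 147 tested genes were lower (61.2%, against 22.1% of all tested genes) and 1 was higher. Their median log2 fold change was -2.63, against -0.18 over all tested genes. Together the 183 genes of these 5 lists took 0.194% to 2.26% of non-Rn45s counts in sorted libraries (median 0.756%), and 2.78% to 3.39% in crude libraries (median 3.21%). All 10 sorted libraries lay below every crude library. With crude counts thinned to the sorted totals, 30 of the 60 that could then be tested were lower, against 11.6% of all genes tested there. These lists were joined after their values were seen.

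For a set of lists of cytosolic and nuclear proteins, also joined after their values were seen, the counts ran the other way. Over 8 lists (translation factors, splicing and nuclear RNA-binding proteins, glycolysis, motors and adaptors, tubulins and microtubule proteins, actin and its regulators, chaperones, proteasome and ubiquitin), 55 of 250 tested genes were higher (22%) and 14 lower (5.60%). Their median log2 fold change was 0.88, and -0.19 with library totals. They took 7.16% to 28.2% of non-Rn45s sorted counts (median 9.36%) and 5.65% to 7.49% of crude counts (median 6.84%). Of the 10 sorted libraries, 8 lay above every crude library. Many of the 55 higher calls rested on a single sorted library, in the sense given above. Those that did not were 3 of 18 splicing, 3 of 9 translation and 3 of 10 proteasome calls. They also included 2 of 5 tubulin, 1 of 3 glycolysis, 5 of 6 motor, 2 of 3 actin and 1 of 1 chaperone calls. Sorted replicate 4 had the highest splicing and translation shares of total counts, at 10.8% and 9.41% (sorted medians 0.465% and 0.947%). Without sorted replicates 1 and 4, 32 of 252 were higher (12.7%, against 6.69% of all genes tested there) and 29 lower (11.5%, against 31.6%), while 107 of 154 receptor, channel and adhesion genes were lower and 1 higher. With library totals 18 cytosolic-list genes were higher (7.20%, against 1.52% of all tested genes) and 38 lower (15.2%, against 39.3%). With sample-weighted voom 10 were higher (4.00%, against 1.17%) and 57 lower (22.8%, against 39.6%). With the replicate block 4 were higher (1.60%, against 0.561%) and 43 lower (17.2%, against 40.01%), with a median of -0.63, against -1.97 over all tested genes. Other lists are in neither joined set, among them postsynaptic scaffolds (median -0.32), ATPase pumps (-0.63) and oxidative phosphorylation genes (0.35). The contrast between the 2 sets depends on which lists were joined.

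**Figure D4:**
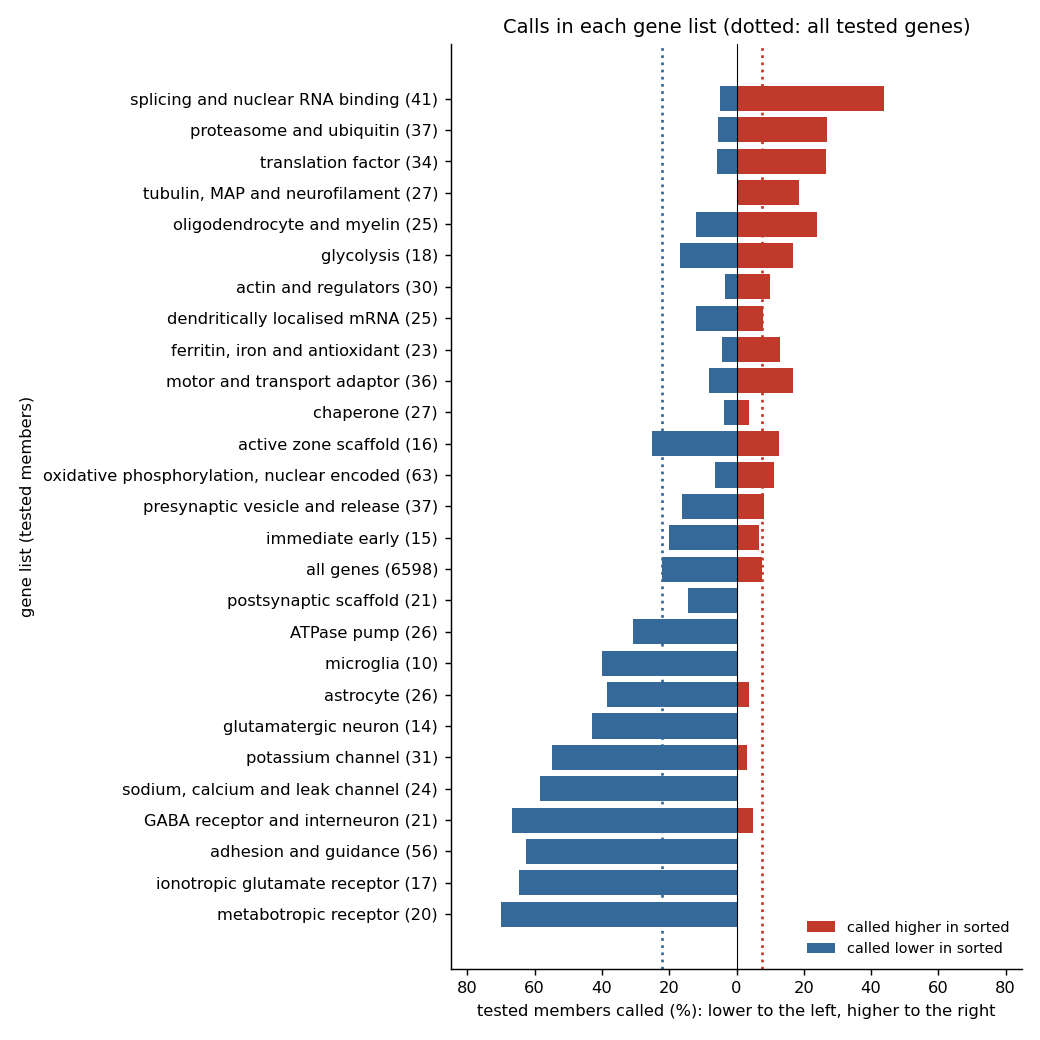
Share of tested members called higher (red, to the right) or lower (blue, to the left) in sorted libraries for each gene list with at least 10 tested members, and for all genes. Numbers of tested members are in brackets, lists are ordered by median log2 fold change, and dotted lines mark the shares over all tested genes, 7.62% higher and 22.1% lower. Receptor, channel and adhesion lists lie at the bottom with hardly any member higher.

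Among ionotropic glutamate receptor genes, which encode the fast excitatory receptors, 11 of 17 tested fell and 0 rose (median -2.97). Gria2, an AMPA receptor subunit (chromosome 3, 80681450 to 80802835), lay at 0 to 268 CPM in sorted libraries (median 54.03) and 563 to 1043 CPM in crude libraries (median 768) (-3.08 ± 0.72, edgeR adjusted p = 0.00173). Every sorted library was below every crude one. Of 20 metabotropic receptor genes tested, 14 fell and 0 rose (median -3.46). Grm5, a glutamate receptor that signals through phospholipase C (chromosome 7, 87584168 to 88134907), lay at 0 to 218 CPM in sorted libraries (median 25.6) and 282 to 602 CPM in crude libraries (median 410.4) (-3.13 ± 0.67, edgeR adjusted p = 0.000709). No sorted library reached the crude range.

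In the list of GABA receptors and interneuron genes 14 of 21 fell and 1 rose (median -2.67). Gabrb1, a GABA-A receptor subunit, lay at 0 to 94.1 CPM in sorted libraries (median 27.2) and 388 to 927 CPM in crude libraries (median 616) (-4.28 ± 0.69, edgeR adjusted p = 3.54e-05). The groups did not overlap in Gabrb1. The member that rose was Pvalb, the cytosolic calcium buffer parvalbumin of fast-spiking interneurons, at 5.88 to 202 CPM in sorted libraries (median 31.1) and 8.36 to 32.3 CPM in crude libraries (median 14.5) (1.59 ± 0.57, edgeR adjusted p = 0.0362). Its groups overlapped, and the call was lost with library totals (0.69), without sorted replicate 6 (1.01) and on leaving out any of 8 crude libraries.

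Of 56 tested adhesion and guidance genes 35 fell and 0 rose (median -2.68). Cntn1, a membrane-anchored adhesion molecule of axons (chromosome 15, 92051165 to 92341967), lay at 0 to 119 CPM in sorted libraries (median 22.4) and 322 to 708 CPM in crude libraries (median 486) (-3.87 ± 0.63, edgeR adjusted p = 3.85e-05). Ptprd, a receptor phosphatase that organises synapses, lay at 0 to 45.7 CPM in sorted libraries (median 20.1) and 149.9 to 337 CPM in crude libraries (median 234) (-3.63 ± 0.64, edgeR adjusted p = 9.96e-05). Both were below the crude range in every sorted library. Cadm2, a synaptic cell adhesion molecule, fell by 2.02 ± 0.61 (edgeR adjusted p = 0.0137), and 1 sorted library at 732 CPM overlapped the crude range of 472 to 1299.

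Of 31 potassium channel genes 17 fell and 1 rose, and of 24 sodium, calcium and leak channel genes 14 fell and 0 rose (medians -1.85 and -2.51). Scn2a, a voltage-gated sodium channel, lay at 0 to 626 CPM in sorted libraries (median 56.4) and 507 to 887 CPM in crude libraries (median 653) (-2.21 ± 0.76, edgeR adjusted p = 0.0287), with 1 sorted library inside the crude range. With crude libraries thinned its call was lost at -1.89. Kcnma1, the BK potassium channel, lay at 42.1 to 639.9 CPM in sorted libraries (median 184) and 426 to 1442 CPM in crude libraries (median 692) (-1.85 ± 0.55, edgeR adjusted p = 0.0122).

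The strongest falls among transcripts still counted in at least 8 sorted libraries were also of membrane or secreted proteins. Serinc1, a multi-pass membrane protein (chromosome 10, 57515774 to 57532530), lay at 19.1 to 150.2 CPM in sorted libraries (median 76.4) and 597 to 1344 CPM in crude libraries (median 961) (-3.66 ± 0.51, edgeR adjusted p = 1.05e-05). Sparcl1, a secreted matrix protein made largely by astrocytes, lay at 70.6 to 437 CPM in sorted libraries (median 189.6) and 1578 to 4394 CPM in crude libraries (median 1959) (-3.48 ± 0.50, edgeR adjusted p = 1.39e-05). Both were counted in every sorted library and yet never reached the crude range. Gpm6a, a neuronal membrane glycoprotein, lay at 0 to 99.00 CPM in sorted libraries (median 36.9) and 424 to 654 CPM in crude libraries (median 556) (-3.69 ± 0.61, edgeR adjusted p = 4.95e-05). Plppr4, a membrane protein of excitatory postsynapses, fell by 3.77 ± 0.73 (edgeR adjusted p = 0.000241), and the secreted proteoglycan gene Spock1 fell by 3.69 ± 0.65 (edgeR adjusted p = 9.07e-05). The groups overlapped in none of them. There were 63 such lower genes in all.

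Of 26 tested ATPase pump genes 8 were lower (30.8%, against 22.1% of all tested genes) and 0 higher (median -0.63). Atp2b1, the plasma membrane calcium pump, lay at 0 to 183 CPM in sorted libraries (median 33.7) and 541 to 858 CPM in crude libraries (median 656) (-3.56 ± 0.64, edgeR adjusted p = 0.000112). Atp1b1, the beta subunit of the sodium pump, lay at 99.00 to 1012 CPM in sorted libraries (median 208) and 1117 to 2615 CPM in crude libraries (median 1789) (-2.33 ± 0.51, edgeR adjusted p = 0.000949). Both lay below the crude range in 10 of 10 sorted libraries. Itpr1, the calcium release channel of the endoplasmic reticulum, fell by 1.99 ± 0.59 (edgeR adjusted p = 0.0116). Slc2a3, the neuronal glucose transporter that the glycolysis list includes, fell by 3.92 ± 0.85 (edgeR adjusted p = 0.000841).

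Of 37 tested synaptic vesicle and release genes 3 rose (8.11%) and 6 fell (16.2%), shares near the 7.62% and 22.1% of all tested genes (median -0.03). Snap25, a SNARE protein attached to the membrane by lipid anchors, lay at 876 to 10438 CPM in sorted libraries (median 4023) and 1166 to 2139 CPM in crude libraries (median 1994) (1.30 ± 0.42, edgeR adjusted p = 0.0195), with 8 of 10 sorted libraries above every crude one. The Snap25 call was lost with library totals (0.25), with the replicate block (1.13) and with no filter (0.99). Syt1, the transmembrane calcium sensor of release (chromosome 10, 108497650 to 109010982), lay at 7.62 to 1656 CPM in sorted libraries (median 132) and 1139 to 3259 CPM in crude libraries (median 2171) (-2.83 ± 0.66, edgeR adjusted p = 0.00184), and sorted replicate 6 alone, at 1656 CPM, reached the crude range. Sv2b, a transmembrane vesicle protein, lay at 0 to 141 CPM in sorted libraries (median 51.4) and 435 to 1079.7 CPM in crude libraries (median 697) (-3.52 ± 0.61, edgeR adjusted p = 7.28e-05), with no overlap.

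Scaffold genes on both sides of the synapse were mostly not called, as were 70.3% of all tested genes. Of 16 active zone genes 2 rose (12.5%) and 4 fell (25%), with a median of 0.36. Of 21 postsynaptic scaffold genes 0 rose and 3 fell (14.3%), with a median of -0.32. Over all tested genes 7.62% rose and 22.1% fell. Pclo, a giant active zone protein, lay at 0 to 406 CPM in sorted libraries (median 9.25) and 279 to 867 CPM in crude libraries (median 473) (-2.96 ± 0.91, edgeR adjusted p = 0.0158), and stood at -4.31 without sorted replicate 2. Lrrc7, the postsynaptic density protein densin, fell by 2.07 ± 0.72 (edgeR adjusted p = 0.0301), by 3.22 without sorted replicate 10, and lost its call without crude replicate 1. Cask, a scaffold kinase, was called higher (3.72 ± 1.21, edgeR adjusted p = 0.0215) with 57.4% of its sorted sum in replicate 5. With that library left out it stood at 2.61 (edgeR adjusted p = 0.0701). Of 25 mRNAs listed as dendritically localised, 2 rose (8.00%, near the 7.62% of all tested genes) and 3 fell (median 0.55). Camk2a, the classic dendritic kinase mRNA, lay at 7.62 to 2642 CPM in sorted libraries (median 86.04) and 67.8 to 376 CPM in crude libraries (median 192) and Map2, a dendritic microtubule protein, at 42.1 to 5762 CPM in sorted libraries (median 199.7) and 503 to 2159 CPM in crude libraries (median 1007). Neither passed the test (0.92 ± 0.80 and -0.28 ± 0.74, edgeR adjusted p = 0.4 and 0.804), and a single sorted library gave 63.9% of the Camk2a sum and 59.2% of the Map2 sum.

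Of 34 translation factors 9 rose (26.5%, against 7.62% of all tested genes) and 2 fell (5.88%, against 22.1%), with a median of 1.02. No library gave over 50% of the sorted sum in 3 of the 9. Eef1a1, elongation factor 1-alpha, lay at 805 to 12406 CPM in sorted libraries (median 2861) and 753 to 1727 CPM in crude libraries (median 1150.5) (1.70 ± 0.49, edgeR adjusted p = 0.0103), with 7 of 10 sorted libraries above every crude one. Its call was lost with library totals (0.38) and without sorted replicates 1 and 4 (0.92). Eif2s3x, an initiation factor subunit, fell by 1.58 ± 0.56 (edgeR adjusted p = 0.0326). Its call was lost with the replicate block (edgeR adjusted p = 0.0678) and on leaving out any of 5 crude libraries.

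Actb, beta-actin, lay at 737 to 2832 CPM in sorted libraries (median 1566) and 302 to 1178 CPM in crude libraries (median 677) (1.21 ± 0.43, edgeR adjusted p = 0.0337), and 9 of 10 sorted libraries were above the crude range. The Actb call was lost with library totals (0.22) and on leaving out any of 8 libraries, 7 of them crude. It was also lost with the replicate block (1.24) and with no filter (0.88). Tubulin, microtubule-associated and neurofilament genes rose in 5 of 27 (18.5%) and fell in 0 (median 0.99). Actin genes rose in 3 of 30 (10.0%, near the 7.62% of all tested genes) and fell in 1 (median 0.57). Motor and adaptor genes rose in 6 of 36 (16.7%), Trak2 among them, and fell in 3 (median 0.47). Myo5a, a myosin motor of vesicle transport, lay at 0 to 75.9 CPM in sorted libraries (median 9.77) and 121 to 299.7 CPM in crude libraries (median 193) (-3.24 ± 0.76, edgeR adjusted p = 0.00179), and the groups did not overlap.

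Oxidative phosphorylation genes encoded in the nucleus rose in 7 of 63 (11.1%, against 7.62% of all tested genes) and fell in 4 (6.35%, against 22.1%), with a median of 0.35. Cox4i1, a subunit of cytochrome c oxidase, lay at 500.2 to 22451 CPM in sorted libraries (median 4313) and 655 to 3513 CPM in crude libraries (median 994) (2.70 ± 0.65, edgeR adjusted p = 0.00249), with 5 sorted libraries above every crude one and 1 below. Ndufs1, the largest subunit of complex I, lay at 0 to 119 CPM in sorted libraries (median 15.7) and 112 to 247 CPM in crude libraries (median 189.9) (-2.25 ± 0.74, edgeR adjusted p = 0.023). Glycolysis genes rose in 3 of 18 (16.7%) and fell in 3 (median 0.59). Ferritin, iron and antioxidant genes rose in 3 of 23 (13.04%) and fell in 1 (median 0.47). The member that fell was Tfrc, the transferrin receptor that takes up iron, counted in 2 sorted libraries (-2.85 ± 0.85, edgeR adjusted p = 0.0125); without sorted replicate 4 it stood at -6.53.

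Chaperone genes rose in 1 of 27 (3.70%) and fell in 1 (median 0.38). Cryab, a small heat shock protein of glia, lay at 325 to 3095 CPM in sorted libraries (median 1486) and 155 to 735 CPM in crude libraries (median 378) (1.68 ± 0.51, edgeR adjusted p = 0.0151). The Cryab call was lost with library totals (0.84), with the replicate block (1.51) and with no filter (1.39). Hspa4l, a heat shock co-chaperone, was counted in 3 sorted libraries and fell by 2.87 ± 0.71 (edgeR adjusted p = 0.00294). Proteasome and ubiquitin genes rose in 10 of 37 (27.03%, against 7.62% of all tested genes) and fell in 2 (median 1.08), and in 3 of the 10 no library gave over 50%. Immediate early genes rose in 1 of 15 and fell in 3 (20%, near the 22.1% of all tested genes; median -0.18), with Egr3, an activity-induced transcription factor, at 0 to 71.6 CPM in sorted libraries (median 13.3) and 45.3 to 156 CPM in crude libraries (median 92.1) (-2.36 ± 0.65, edgeR adjusted p = 0.00759). Jund, a member of the AP-1 family, rose by 2.03 ± 0.71 (edgeR adjusted p = 0.0313) and lost its call with library totals (1.09) and on leaving out any of 7 libraries.

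Transcript length moved with the change. Among genes at 100 to 300 CPM in crude libraries, the median log2 fold change was 0.71 for longest annotated transcripts under 2000 bases, 0.36 at 2000 to 4000, -0.32 at 4000 to 6000 and -1.10 at 6000 or more. The median length was 2267 bases among the 170 higher genes without a dominant library, 4262 among lower genes and 3673 among all tested genes, of which 98.9% had an annotated transcript. Within each length range with more than 2 of them, the share of receptor, channel and adhesion genes that fell exceeded that of all tested genes. At 2000 to 4000 bases 13 of 29 were lower (44.8%), against 20.6% of all tested genes in that range, and at 4000 to 6000 bases 29 of 48 (60.4%), against 26.2%. At 6000 bases or more 48 of 68 were lower (70.6%), against 29.1%. In the cytosolic lists the lower calls at 4000 to 6000 bases were 2 of 31 (6.45%) and at 6000 or more 4 of 41 (9.76%). The part of length in the changes was not tested.

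**Figure D5:**
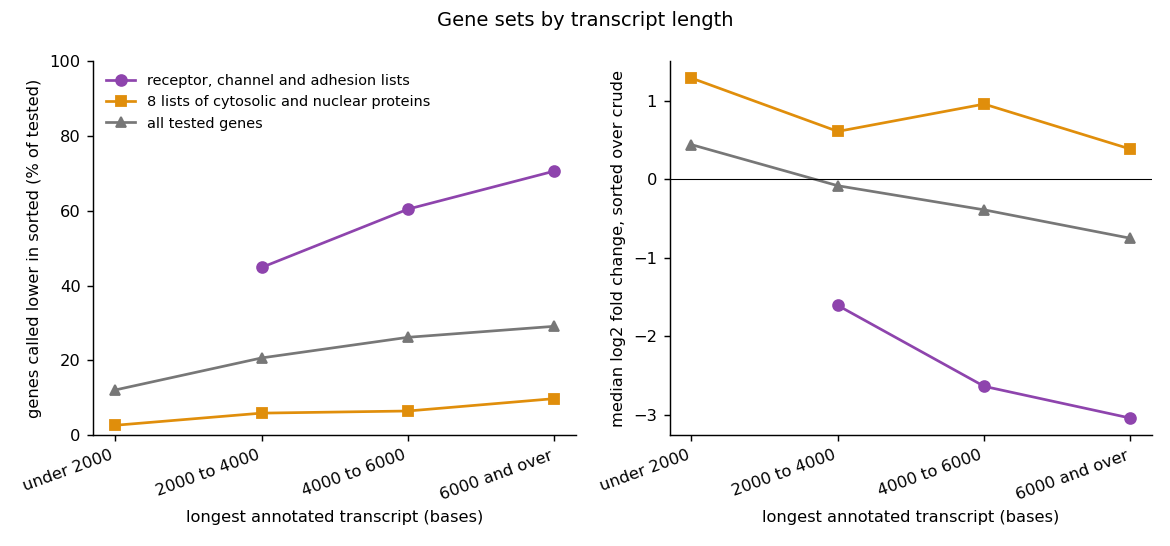
Share of tested genes called lower in sorted libraries (left) and median log2 fold change of sorted over crude (right) by the length of the longest annotated transcript in bases. Purple circles are receptor, channel and adhesion lists (its 2 genes under 2000 bases are not drawn), orange squares are 8 lists of cytosolic and nuclear proteins, and grey triangles are all tested genes. At 4000 to 6000 bases the lower shares are 60.4%, 6.45% and 26.2%.

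Transcripts that dropped out were counted in all 10 crude libraries and in no sorted library. There were 1591, and 2031 without the deep sorted replicate 1. Most were low in crude, and 369 had a mean of at least 10 CPM there. In 107 the crude libraries thinned to the sorted totals also all held a count, and in 62 those thinned to the sorted counts other than Rn45s. Of the 1591 genes, 146 passed the expression filter, and all of these were called lower. They were picked for a count of 0 in every sorted library, so that call was fixed in advance and is no separate support. Metabotropic receptors gave 10 of the 1591, out of 25 of their list counted in every crude library. Of the 174 receptor, channel and adhesion genes counted in every crude library 30 dropped out (17.2%), a share near the 15.0% of all genes counted in every crude library. With crude counts thinned to the sorted totals it was 13 of 124 (10.5%), against 2.24% of all genes counted in every thinned crude library. With the thinning that leaves out Rn45s it was 9 of 119 (7.56%), against 1.59%. In the cytosolic lists 1 of 262 dropped out (0.382%), and 0 of 222 and 0 of 192 with these thinnings.

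The dropped-out gene highest in crude was Ptprr, a receptor tyrosine phosphatase (chromosome 10, 116018213 to 116274932), at 234 ± 111 CPM in crude libraries. Against a floor of 3 counts over the pooled sorted libraries it was at least 107-fold lower in sorted libraries, and at least 68.9-fold without sorted replicate 1. Bounds of this kind, here and next, allow for counting error only and not for uneven detection among sorted libraries. Gpr158, an orphan receptor, averaged 206 ± 106 CPM in crude libraries and was at least 84.3-fold lower. Cnr1, the CB1 cannabinoid receptor, averaged 95.1 ± 36.6 CPM in crude libraries and was at least 40.5-fold lower. Unc79, a subunit of the sodium leak channel complex, was at least 51.6-fold lower, and the somatostatin receptor gene Sstr1 at least 29.3-fold. All 12 genes named here and next had a count in every crude library after thinning to the sorted totals, and all but Cdhr1, with 9 libraries, after the thinning that leaves out Rn45s.

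Other genes lost in this way encode secretory, transporter or lipid enzymes as well as cytosolic proteins. Klhl42, a cullin adaptor, was at least 56.1-fold lower, Sptlc1, a subunit of serine palmitoyltransferase, at least 49.7-fold, and Ift52, a ciliary transport protein, at least 40.5-fold. The cell surface protein gene Lingo2 was at least 35.1-fold lower, the amino acid transporter gene Slc1a4 at least 33.8-fold and the secretogranin gene Scg2 at least 26.1-fold. Cdhr1, a cadherin-related gene with 4.45 to 166 CPM in crude libraries (median 81.5), was at least 32.3-fold lower but did not pass the expression filter. The edgeR adjusted p of the others ran from 7.98e-06 for Ptprr to 2.63e-05 for Scg2, and the bounds without sorted replicate 1 from 16.8 for Scg2 upward. Since these genes were picked for having no sorted count, the p-values add no support.

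Transcripts that stayed could be told from imprecise ones only where the interval was narrow. The 95% interval of the log2 fold change lay within -1 and 1 for a single gene, Ppp3ca, the catalytic calcineurin subunit (chromosome 3, 136670124 to 136937727). Ppp3ca lay at 249 to 2465 CPM in sorted libraries (median 1066) and 1002 to 1641 CPM in crude libraries (median 1245), and the groups overlapped (-0.08 ± 0.45, interval -0.997 to 0.83). Within -1.5 and 1.5 there were 250 genes, of which 87 had a count in every sorted library. Those with the highest sorted mean CPM, named after their values were seen, included Ttc3, Itm2c, Cst3, Gpm6b, Actg1, Hsp90ab1, Atp6v1a and Ppp1cc. With library totals these 8 stood at -0.53 to -1.33, and Itm2c, at -1.33, was called lower (edgeR adjusted p = 0.00589). Actg1, gamma-actin, lay at 391.9 to 3990.3 CPM in sorted libraries (median 1562) and 1211 to 3099 CPM in crude libraries (median 1592) (interval -0.90 to 1.07). Gpm6b, the glial relative of Gpm6a, lay at 880.2 to 9064 CPM in sorted libraries (median 2031) and 1587 to 2886 CPM in crude libraries (median 2131) (interval -0.48 to 1.34). In all, 445 of the 607 genes counted in every sorted library were not called, which does not show equal levels.

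Genes led by a single sorted library were highest for Ybx1, a cold shock RNA-binding protein. It had 117942 CPM in sorted replicate 4 and at most 6887 in the other sorted libraries, against 158 to 324 CPM in crude libraries (median 202). The log2 fold change was 5.82 ± 1.32 (edgeR adjusted p = 0.00139) and 2.23 without replicate 4 (edgeR adjusted p = 0.0401). Replicate 4 also gave 91.5% of the sorted sum of Tuba1b, an alpha-tubulin, 94.02% of Hnrnph1, 94.3% of Hnrnpd and 93.9% of Syncrip, 3 nuclear RNA-binding protein genes. Without it none of these 4 passed the test. Tpi1, triosephosphate isomerase, had 55006 CPM in replicate 2 and at most 1197 elsewhere in sorted libraries, and stood at -1.11 without it. Wdr82, of a histone methyltransferase complex, took 91.9% from replicate 8, and Arl8a, a lysosomal GTPase, 98.8% from replicate 1. Without those libraries they stood at 0.33 and 0.51.

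The splicing and nuclear RNA-binding list shows how far such libraries reach. Of 41 tested, 18 rose and 2 fell (median 1.92), but only 3 of the 18 had no library over 50%. Without sorted replicates 1 and 4, 3 rose and 8 fell (median 0.09). Prpf8, the core splicing factor that fell, had a count in 1 sorted library (-6.91 ± 0.83, edgeR adjusted p = 5.29e-06). Other calls of listed genes that rested on a library were Capzb (64.00% in replicate 1), Mapre2 (55.6% in replicate 1), Eif4g2 (70.9% in replicate 4) and Ube2d3 (81.9% in replicate 4). Without these libraries Capzb stood at 3.06 and Eif4g2 at 2.14, both still called, and Mapre2 at 1.14 and Ube2d3 at 0.97, not called. Eif4g2 lost its call without sorted replicates 1 and 4 (0.50, edgeR adjusted p = 0.454). Both Capzb and Eif4g2 lost theirs with sample-weighted voom (1.62 and 0.76) and with the replicate block (1.70 and 0.82).

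Markers of cell types moved with the groups, and those of the labelled neurons were present in both. Marker shares here are of total counts with Rn45s included, unlike the non-Rn45s shares above, and Rn45s took 0.805% to 62.5% of sorted counts. The 6 neuronal markers took 0.0551% to 0.606% of sorted counts (median 0.402%) and 0.482% to 0.709% of crude counts (median 0.589%). By log2 fold change Tubb3 (2.56) and Snap25 (1.30) were called higher and Syt1 (-2.83) lower. Stmn2 (0.99), Rbfox3 (0.77) and Nefl (0.17) were not called. Tubb3 and Snap25 lost their calls with the replicate block (1.88 and 1.13). The 6 oligodendrocyte markers took 0.780% to 6.72% of sorted counts (median 3.16%) and 0.339% to 1.00% of crude counts (median 0.706%). The 6 astrocyte markers took 0.0366% to 0.589% of sorted counts (median 0.329%) and 0.726% to 1.66% of crude counts (median 1.19%). The 6 microglial markers took 0% to 0.0274% of sorted counts (median 0.00309%) and 0.00980% to 0.0606% of crude counts (median 0.0288%). The microglial Cx3cr1, the endothelial Cldn5, Pecam1, Flt1 and Cdh5, the blood marker Hba-a2 and the choroid plexus markers Folr1 and Kl were at 0 in every sorted library. Of these, Cldn5, Pecam1, Cdh5 and Folr1 averaged under 1 CPM in crude libraries and had a count in at most 2 thinned crude libraries, so their absence was not detectable at this depth. Cx3cr1 and Flt1 had a count in 6 and 4 thinned crude libraries. Against 3 counts over the pooled sorted libraries they were only 1.42-fold and 1.60-fold lower. Kl and Hba-a2 had a count in 8 and 7 thinned crude libraries, with bounds of 4.41-fold and 7.70-fold. How reads were split between Hba-a1 and Hba-a2 is not known here. Means ran the other way for the hemoglobin gene Hba-a1, at 167 CPM in sorted and 10.7 CPM in crude libraries, and the microglial C1qa, at 39.2 CPM in sorted and 6.31 CPM in crude libraries, and neither passed the expression filter. These means rested on few libraries. The Hba-a1 medians were 6.75 CPM in sorted and 5.92 CPM in crude libraries, with 56.1% of the sorted sum from replicate 3. The C1qa medians were 0 CPM in sorted and 6.63 CPM in crude libraries, with 81.6% of the sorted sum from replicate 8. The part of these markers in the changes of other genes was not tested.

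Of 25 oligodendrocyte genes tested, 6 rose (24%, against 7.62% of all tested genes) and 3 fell (12%, against 22.1%). Their median was 0.59, against -0.18 over all tested genes, and -0.44 with library totals. Mog, a surface protein of myelin, lay at 0 to 88.5 CPM in sorted libraries (median 14.1) and 26.97 to 126 CPM in crude libraries (median 39.9) and did not pass the test (-1.36 ± 0.67, edgeR adjusted p = 0.13). Mag, a myelin adhesion protein, had a count in 1 sorted library and did not pass the expression filter. Cnp, an enzyme of uncompacted myelin, was called higher (1.85 ± 0.64, edgeR adjusted p = 0.029) and lost its call with library totals (1.04) and on leaving out any of 4 libraries. The Cnp call was also lost with sample-weighted voom (1.30), with the replicate block (1.37) and with no filter (1.62). Enpp2, a secreted enzyme of oligodendrocytes and choroid plexus, fell by 2.56 ± 0.67 (edgeR adjusted p = 0.00487).

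Among the other glial lists more members fell than rose. Astrocyte genes fell in 10 of 26 (38.5%, against 22.1% of all tested genes) and rose in 1 (median -1.31), and microglial genes fell in 4 of 10 (40%) and rose in 0 (median -1.07). Cpe, a secretory enzyme that processes peptides, lay at 411 to 1355 CPM in sorted libraries (median 736) and 1472 to 3505 CPM in crude libraries (median 2032) (-1.47 ± 0.41, edgeR adjusted p = 0.00788), with no overlap. Ptprz1, a receptor phosphatase of precursors and astrocytes, fell by 3.96 ± 0.74 (edgeR adjusted p = 0.000173), and the microglial protease gene Ctss fell by 2.38 ± 0.88 (edgeR adjusted p = 0.0408). The Ctss call did not survive leaving out any 1 of 9 crude libraries. Itm2a, a membrane protein of vascular cells, had a count in 1 sorted library (-5.67 ± 0.99, edgeR adjusted p = 8.22e-05).

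On the per-length scale of the deposited TPM values, the gene order at the top was partly shared. The 10 genes with the highest sorted median TPM were Rn45s, Fth1, Rpl27, Mbp, Cox4i1, Rplp1, Ckb, Mdh2, Mobp and Rpl23a, and 6 of them were also among the 10 highest in crude. Of the 100 highest, 66 were shared. Mobp ranked 9 in sorted libraries, with a median of 6472 TPM, and 163 in crude libraries, with 817 TPM. Cst3, the secreted protease inhibitor cystatin C, ranked 11 in sorted libraries, with a median of 5119 TPM, and 3 in crude libraries, with 18002 TPM. For 124 genes a count was found in sorted but in no crude library, and 12 of these had counts in at least 2 sorted libraries.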

How the data were processed

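The authors deposited estimated counts of reads per gene symbol and TPM values, in separate columns of a table of 25239 genes, per the file headers. Per the submitters' processing notes, HISAT2, fastp, GRCm39 and GRCm38 were used, without role or version. With counting tool, annotation and strand setting not given in the sources used here, overlapping genes and near-identical copies may share reads. Counts (7278 values not whole) were rounded. Deposited TPM values served only for levels between genes.

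Groups came from sample titles. edgeR 4.0.16 (R 4.3.3) used TMM factors, filterByExpr, and the quasi-likelihood test on group alone, with a threshold of 0.05 on p after Benjamini-Hochberg adjustment. The filter kept 6598 genes. CPM are TMM-scaled. Crude libraries were thinned once to the totals of same-numbered sorted libraries and, for detection, once to their counts other than Rn45s. The code was checked on simulated data. Alternatives were DESeq2 1.42.0 (size factors, Wald test), limma 3.58.1 voom with sample weights, library totals, other filters, a replicate block, thinned crude libraries, and left-out libraries or Rn45s. Transcript lengths and positions come from GENCODE M21 on GRCm38.

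The members and the 31 gene lists were chosen with earlier results of these data known. Genes were named as follows: the 15 highest fold changes among higher genes counted in every sorted library, with no library over 50% of the sorted sum and a mean of at least 50 CPM; the 12 dropped-out genes highest in crude; genes that stay; the 10 lowest fold changes among lower genes counted in at least 8 sorted libraries; the 8 highest genes with over 90% from a library; and the most abundant called member of each list in each direction. Predicted-gene and clone names were left out. Actb, Camk2a, Map2, Mag, Mog and Cnp were added after their values were seen. The sucrose gradient and total RNA libraries were not used here, and a few genes that the rule names are not reported here.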

Additional observations from a re-analysis of the deposited data

Results flagged for a closer look

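In each group of 10 libraries the highest and lowest values were compared with the nearest other value, and a gap over the 95% critical value of Dixon's test set the library apart. Chance flags about 1 in 20 groups only where values are normally distributed, and the sorted CPM of many named genes was skewed. Of 192 groups of values looked at, 60 values stood apart, 39 of them of named genes in sorted and 18 in crude libraries. Genes named for over 90% of their sorted sum in a library were bound to be flagged. So were Prpf8, Itm2a and Mag, each counted in a single sorted library. The 60 values therefore cannot be set against the rate of 1 in 20, and no excess over chance is drawn from them. The causes were not tested.

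Among library measures, sorted replicate 1 held 1812759 counts, against 325117 in the next deepest sorted library. Sorted replicate 4 led 150 of the calls that rested on a library, against 36 for the next, and 63.9% of its counts fell in genes it led, against 29.3% for the next.

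The highest value stood apart in sorted replicate 1 for Arl8a at 30229 CPM, Bcas1 at 3619 CPM, Cadm2 at 732 CPM, Capzb at 22872 CPM, Ddx39b at 6843 CPM, Kcnma1 at 639.9 CPM, Mapre2 at 33748 CPM, Prpf8 at 3.70 CPM and Snap25 at 10438 CPM. The same held in sorted replicate 2 for Cntn1 at 119 CPM, Egr3 at 71.6 CPM, Fth1 at 71266 CPM, Map2 at 5762 CPM, Pclo at 406 CPM, Plppr4 at 161 CPM and Tpi1 at 55006 CPM. A gap was also found in sorted replicate 3 for Atp6v1a at 6658 CPM. In sorted replicate 4 it did so for Eif4g2 at 82667 CPM, Hnrnpd at 35428 CPM, Hnrnph1 at 50994 CPM, Myl6 at 10517 CPM, Syncrip at 29579 CPM, Tfrc at 76.2 CPM, Tuba1b at 51512 CPM, Ube2d3 at 18887 CPM and Ybx1 at 117942 CPM. The same held in sorted replicate 5 for Hspa4l at 23.8 CPM. A gap was also found in sorted replicate 6 for Camk2a at 2642 CPM, Itm2a at 12.6 CPM, Mog at 88.5 CPM, Pvalb at 202 CPM and Syt1 at 1656 CPM. The same held in sorted replicate 7 for Eif2s3x at 177 CPM, Gpm6b at 9064 CPM and Grm5 at 218 CPM. In sorted replicate 8 it did so for Wdr82 at 23525 CPM. The same held in sorted replicate 9 for Mag at 57.4 CPM. A gap was also found in sorted replicate 10 for Hipk2 at 929.7 CPM and Lrrc7 at 712 CPM.

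The highest value stood apart in crude replicate 1 for Cnp at 1163 CPM, Jund at 51.9 CPM, Lrrc7 at 906 CPM, Plppr4 at 1279.8 CPM and Wdr82 at 377 CPM. The same held in crude replicate 2 for Cox4i1 at 3513 CPM, Ctss at 399 CPM, Egr3 at 156 CPM, Fth1 at 6551 CPM, Ptprz1 at 553 CPM and Syncrip at 165 CPM. A gap was also found in crude replicate 7 for Mog at 126 CPM. A gap was also found in crude replicate 8 for Cpe at 3505 CPM, Cst3 at 11322 CPM, Hnrnph1 at 159.6 CPM and Klhl42 at 206 CPM. The same held in crude replicate 9 for Arl8a at 64.2 CPM and Tpi1 at 814 CPM.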

How the results depend on the processing

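The counts of called genes depended on the scaling and the test. With library totals 100 genes were higher, 2592 lower, 33 higher without a dominant library, and 6 stayed within 1 on the log2 scale. With sample-weighted voom the same counts were 77, 2610, 68 and 9, with no filter 816, 3601, 95 and 3. With crude counts thinned to the sorted totals 220 were higher, 202 lower and 8 stayed, among the 1747 genes that could then be tested. The DESeq2 Wald test gave 2587 lower, 326 without a dominant library and 77 that stayed. Without sorted replicates 1 and 4, 2346 were lower and 5 stayed, and without Rn45s 2 stayed. At a dominance limit of 30% there were 60, and within 1.5 on the log2 scale 250 stayed. Dropped-out genes numbered 107 against crude libraries thinned to the sorted totals, 62 with the thinning to sorted counts other than Rn45s, added after seeing the data, and 369 at 10 CPM or more, and 288 genes had at least 3 counts in every sorted library. Without sorted replicates 1 and 4, added after seeing the data, 2273 dropped out and 684 were counted in every remaining sorted library.

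Leaving out each library gave 307 to 621 higher, 1247 to 2039 lower, 106 to 188 without a dominant library, 0 to 5 that stayed, 1592 to 2031 dropped out and 609 to 711 counted in every sorted library. The 307 to 358 higher genes came without any 1 crude library, where 6281 to 6953 genes were tested.

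Sorted and crude libraries share replicate numbers. Same-numbered deviations correlated at over 0.1 in 2 of 10 pairs, and 8 of 10 sorted libraries correlated best with their own number, a hint from the data and not from the labels. With a replicate block 37 genes were higher, 2640 lower, 35 without a dominant library and 2 stayed, with a median log2 fold change of -1.97.

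Of the 15 named broad rises, all but Hipk2 (2.03 with the block, not called) kept their call under every other setting that gave them a value on all libraries or without sorted replicates 1 and 4, and all 15 without any 1 library. The 10 named falls kept theirs under every setting tried, and the 11 tested dropouts under every setting that gave them a value, which thinned crude libraries did not for 9 of them. The dropouts were picked for a count of 0 in every sorted library, so their calls are no separate support. Signs reversed for Cask (-0.61 DESeq2, -1.19 voom, -1.19 block) and Tpi1 (-0.98, -2.40, -2.64, and -1.11 to 4.25 with a library left out). They also reversed with voom for Mapre2 (-0.36), Syncrip (-0.91), Tuba1b (-0.35) and Wdr82 (-0.53), and with the block for Arl8a (-0.046), Syncrip (-1.29), Wdr82 (-1.20) and Ybx1 (-0.0066). Without sorted replicates 1 and 4 Hnrnph1 stood at -0.40 and Syncrip at -2.23. The causes were not tested beyond the fewer genes or libraries that an alternative leaves. Depth limits the sorted side: a count of 0 in a sorted library allows up to 1.65 to 39.2 plain CPM of its total, for counting error only.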
